A study of Mus musculus with 6 samples.

Results

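Megalin, encoded by Lrp2, is a very large endocytic receptor of the kidney proximal tubule. Together with its partner cubilin it takes up proteins that have passed the glomerular filter, so that these are degraded or returned to the blood and not lost in the urine. Most of its protein ligands are made by the liver and arrive by filtration, but several are also transcribed in the kidney itself. The genes described here encode 9 protein ligands of megalin or cubilin: the apolipoproteins Apoh, Apoe and Apom, the secreted chaperone Clu, the carrier proteins Gc, Ttr and Alb, the protease inhibitor Cst3 and the siderophore-binding protein Lcn2. They were chosen by name as filtered proteins taken up by megalin or cubilin, and every probe set with a single platform symbol among them was used. This gave 16 probe sets for 8 of the 9 genes, out of 45037 probe sets and 18193 genes in all. Gc, the vitamin D-binding protein, had no such probe set in the annotation and is not analysed here.

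Kidney RNA came from 6 male mice aged 10 weeks, with 1 Affymetrix array for each animal. The ICD group (titled TG) was 3 mice that expressed megalin's soluble intracellular domain, and the series describes these animals as heterozygous for it. The other 3 were wild type littermates. The sources used here give neither the strain nor the promoter or locus that drives the domain. The replicates are separate animals, and values are log2 intensities after RMA (robust multi-array averaging). A value compares 1 probe set across arrays, and gives no order of abundance between genes. The whole kidney was labelled as the tissue, and all 11 measured proximal tubule markers and all 10 of the thick limb and distal tubule lay above the median of all probe sets (6.64). By the brightest probe set of each, 6502 of all 18193 genes lay below that median. In RNA from whole tissue, fewer cells of a type and less RNA per cell cannot be told apart.

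The array labelled wild type 3 was low for several proximal tubule markers. Its mean over the proximal tubule markers was 12.19, whereas the other 5 arrays gave 12.88 to 13.07. Slc5a12, a lactate transporter of the early proximal tubule, read 4.12 on it and 9.27 to 10.47 on the others. Much of the gap in the mean came from this 1 gene, and not every marker was low on the array. Slc27a2, a fatty acid transporter, was highest on it (14.67). Slc5a2, the glucose transporter SGLT2, read 10.40 on it and 11.29 to 11.96 elsewhere. At 1 of the 3 Lrp2 probe sets, 1427133_s_at, it read 12.13, close to the ICD arrays (12.25, 12.37 and 12.26) and not to wild type 1 and 2 (13.01 and 12.97). The other bright Lrp2 probe set, 1452320_at, read 12.77, 12.93 and 12.80 in ICD and 12.92, 12.78 and 12.78 in wild type kidneys. The array is therefore named by its label throughout, and the ligands are given with and without it.

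Apoh encodes beta-2-glycoprotein I, a plasma protein that binds anionic phospholipids. Its probe set 1416677_at showed the widest separation between the genotypes among the ligands. It read 9.15, 8.99 and 8.95 on the ICD arrays and 9.63, 9.78 and 10.17 on the wild type arrays. Every ICD kidney lay below every wild type kidney, and the array labelled wild type 3 was the highest of all 6. Means were 9.03 ± 0.10 (SD, n = 3) and 9.86 ± 0.28, so that the wild type level was 1.78-fold the ICD level. The ICD mean minus the wild type mean was -0.83 (95% confidence interval -1.14 to -0.53), which did not pass the threshold over all probe sets (limma adjusted p = 0.337). It was -0.68 (interval -0.89 to -0.46) when the array labelled wild type 3 was left out. Across 13 alternative settings the limma adjusted p lay between 0.223 and 0.99, the lowest with a trended and robust prior and the highest with the mean of both Apoh probe sets in place of the brighter.

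The other Apoh probe set did not show that separation. 1447719_at, which lay below the median of all probe sets, read 6.16, 5.70 and 6.16 in ICD and 6.19, 5.74 and 5.84 in wild type kidneys. The groups overlapped over almost their whole range, and they differed by 0.084 (interval -0.27 to 0.44). Over the 6 arrays the values of the 2 probe sets had a Pearson correlation of -0.29. Their mean differed by -0.37 (interval -0.59 to -0.15, limma adjusted p = 0.99 over all genes). Where in the transcript each probe set lies was not examined.

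The region upstream of Apoh is shown because its probe set 1416677_at had the largest difference among the ligand probe sets. That of Alb is shown because it holds a known type of liver promoter element. Both are from RefSeq (GRCm38.p6), are the 250 bases before the start site on the plus strand, and lie at chr11:108395047-108395296 and chr5:90460620-90460869. Capitals mark GTTAAT, the core of the site of HNF1, a transcription factor of liver and proximal tubule that binds the albumin promoter.
Apoh: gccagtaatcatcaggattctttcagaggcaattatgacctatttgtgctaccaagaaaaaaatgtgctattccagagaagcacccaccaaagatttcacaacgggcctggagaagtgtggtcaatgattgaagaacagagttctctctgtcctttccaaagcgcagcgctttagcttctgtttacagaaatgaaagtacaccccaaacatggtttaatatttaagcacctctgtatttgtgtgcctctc
Alb: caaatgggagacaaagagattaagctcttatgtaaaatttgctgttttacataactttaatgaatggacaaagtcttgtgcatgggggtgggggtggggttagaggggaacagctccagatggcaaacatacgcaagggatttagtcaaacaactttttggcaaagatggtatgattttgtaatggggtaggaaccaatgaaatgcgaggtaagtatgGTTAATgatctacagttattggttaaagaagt
On either strand, GTTAAT occurred in 6.43% of 32851 RefSeq windows of this length. The Alb window held it 32 bases before the start site and the Gc window 52 bases before, while the Apoh window did not contain these letters. TATAAA, the TATA box, was likewise absent from the letters of the Apoh and Alb windows and occurred in 12.4% of all windows. Both strands were searched for the exact letters of both motifs, so sites that differ from these letters would be missed. No match in Alb or Gc overlapped another. Apoe had 3 start sites in the table, of which 1 window held GTTAAT and another TATAAA. Of the 9 genes, 7 had an entry in the promoter table; Clu and Ttr had none.

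**Figure D1:**
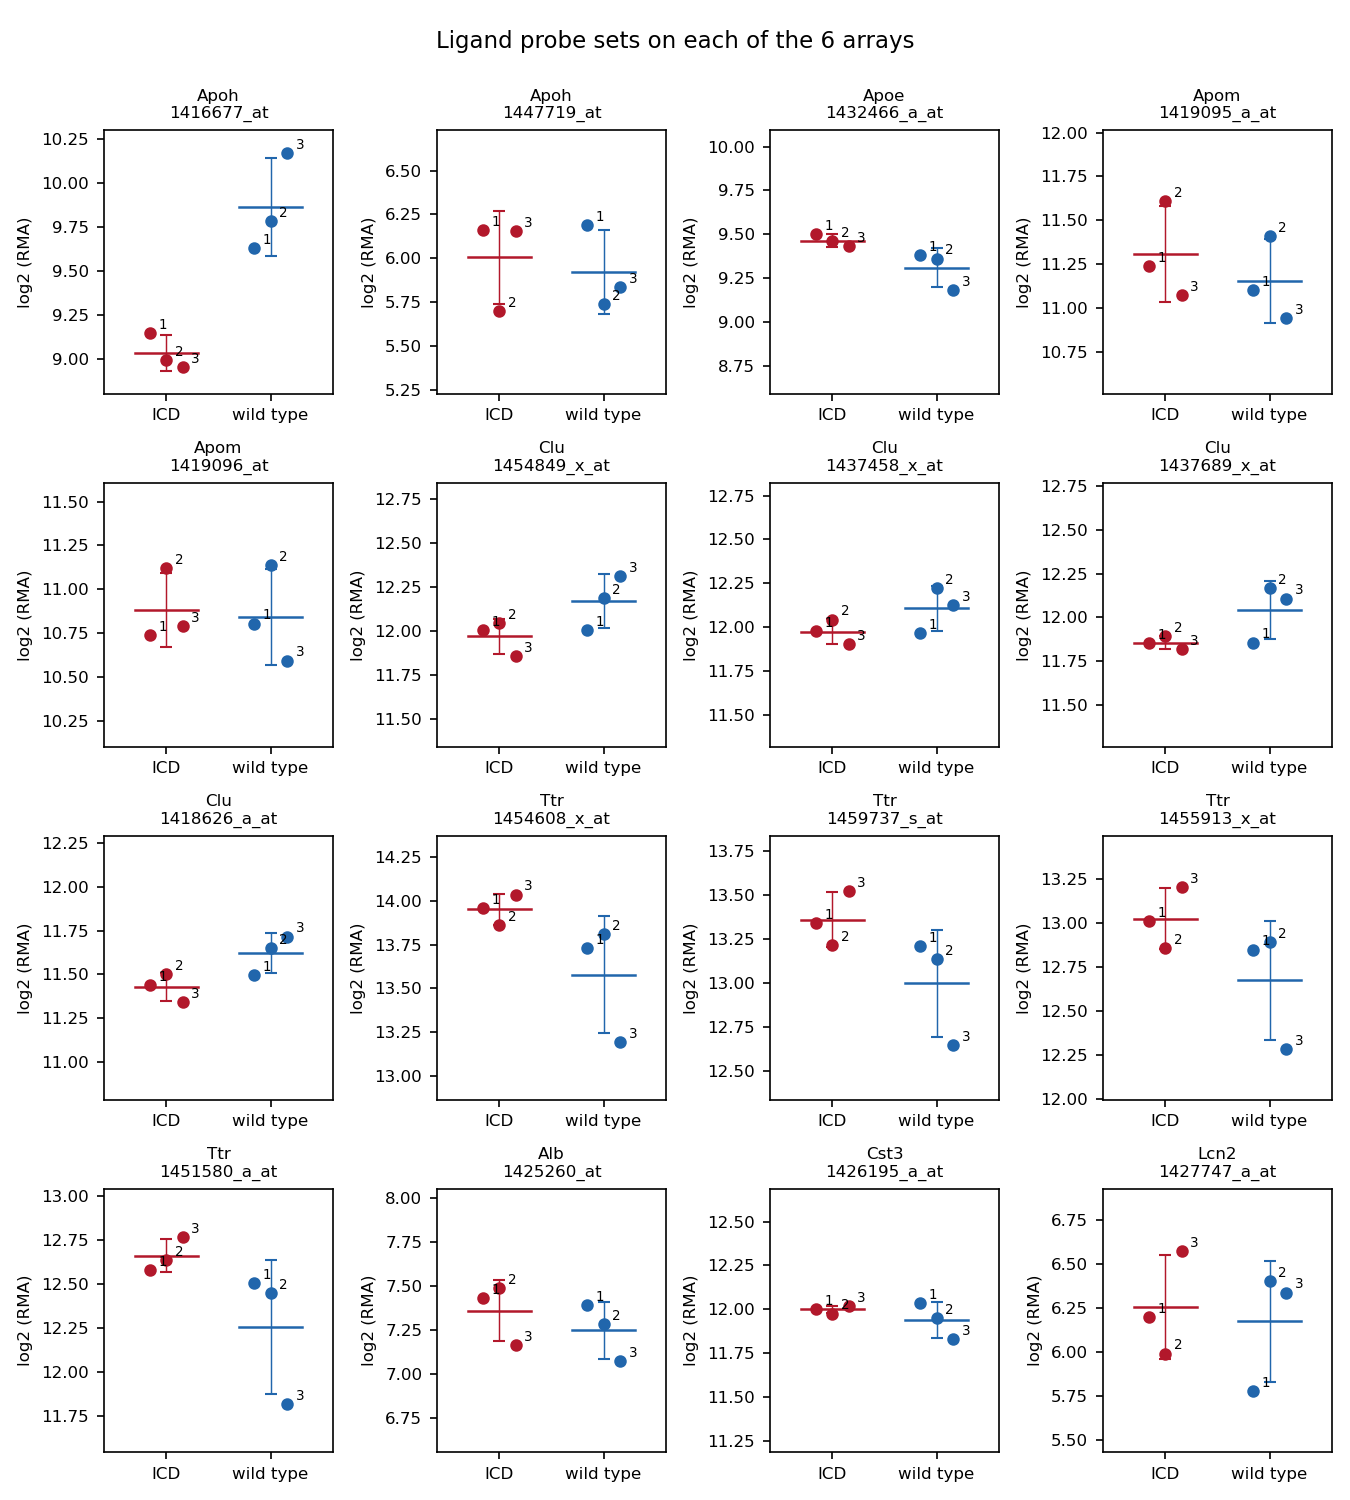
Each panel shows 1 probe set of a ligand gene, with the log2 RMA value of the 3 ICD animals (red) and 3 wild type animals (blue) as points numbered by replicate; lines are means and bars 1 SD. The axes differ between panels. Apoh 1416677_at has all ICD points below all wild type points, and the Ttr panels have the point of wild type 3 far below the rest.

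Ttr encodes transthyretin, which carries thyroid hormone and, with its partner, retinol. Its brightest probe set, 1454608_x_at, read 13.96, 13.86 and 14.03 in ICD kidneys and 13.73, 13.81 and 13.20 in wild type kidneys. The array labelled wild type 3 lay 0.68 below the mean of the other 5, whereas wild type 2 came within 0.049 of the lowest ICD value. Means were 13.95 ± 0.088 (SD, n = 3) and 13.58 ± 0.33, a difference of 0.37 (interval 0.026 to 0.72) that did not pass over all probe sets (limma adjusted p = 0.837). Leaving that array out gave 0.18 (interval -0.019 to 0.38).

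The other 3 Ttr probe sets also read higher in ICD kidneys. 1459737_s_at, 1455913_x_at and 1451580_a_at differed by 0.36, 0.35 and 0.40. At 1455913_x_at the groups overlapped, since wild type 2 (12.89) lay above ICD 2 (12.86), and the interval was -0.025 to 0.72. The array labelled wild type 3 lay 0.64, 0.68 and 0.77 below the mean of the others there, and leaving it out gave differences of 0.19, 0.15 and 0.18. Across the 6 arrays the 4 probe sets had pairwise Pearson correlations of 0.961 to 0.99. All 4 are annotated to the 1 gene Ttr and were read in the same 6 animals. Which transcripts their probes match was not examined.

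Alb encodes albumin, the main protein of plasma. It read 7.43, 7.49 and 7.16 in ICD and 7.39, 7.28 and 7.07 in wild type kidneys. The groups overlapped, with the array labelled wild type 3 lowest and ICD 3 next. The difference was 0.11 (interval -0.15 to 0.37, limma adjusted p = 0.97), and 0.023 with the lowest array left out. The same locus holds Afp, encoding alpha-fetoprotein, which lies next to Alb and differed by -0.13 (interval -0.31 to 0.043). It also holds Afm, encoding afamin, a vitamin E-binding relative of albumin. Afm read 10.47, 10.60 and 10.30 in ICD and 10.34, 10.19 and 10.28 in wild type kidneys, with ICD 3 inside the wild type range. Its difference of 0.19 had an interval of -0.021 to 0.40.

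Because Apoh, Ttr and Alb are transcribed mainly in liver, 16 further hepatocyte genes were read on the same arrays. Of these 10 lay below the median of all probe sets, as did 6502 of all 18193 genes by the brightest probe set of each. The mean of the 16 ran from 6.43 to 6.52 on ICD and from 6.46 to 6.53 on wild type arrays. In all, 8 were higher and 8 lower in ICD kidneys, 0 passed over all probe sets in limma, and the median difference was -0.0086. Over all genes 43.9% were higher, a share that also stands beside such counts for the lists below. Apoa2, an apolipoprotein of high density lipoprotein, read 7.94, 7.84 and 7.96 in ICD and 7.46, 7.50 and 7.44 in wild type kidneys. Its groups did not overlap, in the direction opposite to Apoh, and it differed by 0.45 (interval 0.29 to 0.60, limma adjusted p = 0.328). The fibrinogen chain gene Fga read 8.90, 8.84 and 8.22 in ICD and 8.66, 9.46 and 9.26 in wild type kidneys (difference -0.48, interval -1.01 to 0.058). Cyp3a11, a liver cytochrome, lay between 4.10 and 4.19 on every array.

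Apoe, the ligand of LDL receptor family members on remnant lipoproteins, had 1 probe set. The 3 ICD arrays gave 9.50, 9.46 and 9.43 at 1432466_a_at, and the 3 wild type arrays 9.38, 9.36 and 9.18. No ICD value lay within the wild type range, but only 0.048 separated ICD 3 from wild type 1. The genotypes differed by 0.16 (interval -0.019 to 0.33, limma adjusted p = 0.877). Leaving out the array labelled wild type 3 gave 0.092 (interval -0.080 to 0.26). Macrophages, which also express Apoe, were followed by 10 markers, whose mean was 7.50, 7.35 and 7.63 on ICD and 7.64, 7.51 and 7.26 on wild type arrays. The array labelled wild type 3 was thus lowest for both Apoe and these markers, of which 8 were higher in ICD kidneys and 0 passed. Their median difference was 0.044, and -0.12 with that array left out. The part of macrophages in the Apoe values was not tested. Apoc1 and Apoc4, the apolipoprotein genes beside Apoe, differed by -0.11 (interval -0.36 to 0.15) and 0.020 (interval -0.17 to 0.22).

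Apom encodes apolipoprotein M, a lipocalin that carries sphingosine 1-phosphate on high density lipoprotein and is made in liver and proximal tubule. Its brighter probe set, 1419095_a_at, read 11.24, 11.61 and 11.08 in ICD and 11.10, 11.41 and 10.94 in wild type kidneys. The spread within each genotype exceeded the difference between them, with replicate 2 highest in both groups. The difference was 0.16 (interval -0.20 to 0.52, limma adjusted p = 0.97). Leaving out ICD 2 gave 0.0048, and leaving out the array labelled wild type 3 gave 0.051. The second probe set, 1419096_at, differed by 0.038 (interval -0.31 to 0.38), and by -0.088 without the array labelled wild type 3. The values of the 2 probe sets had a Pearson correlation of 0.907 over the 6 arrays.

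Clu encodes clusterin, a secreted chaperone and apolipoprotein found in several nephron segments and raised in tubular injury. All 4 of its probe sets read lower in ICD kidneys. The brightest, 1454849_x_at, read 12.01, 12.04 and 11.86 in ICD and 12.01, 12.19 and 12.31 in wild type kidneys. Wild type 1 lay within the ICD range at this probe set, and the other 2 wild type arrays lay above it. The difference was -0.20 (interval -0.42 to 0.018, limma adjusted p = 0.873). 1437458_x_at, 1437689_x_at and 1418626_a_at differed by -0.13, -0.19 and -0.19, and wild type 1 lay within the ICD range on each. With the array labelled wild type 3 left out, the 4 differences ran from -0.16 to -0.12. Pairwise Pearson correlations between the Clu probe sets were 0.859 to 0.987 over the 6 arrays.

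Clu was read beside the injury genes because it is itself used as an injury marker. Of 11 measured injury genes 8 were lower and 3 higher in ICD kidneys, with a median difference of -0.059, and 0 passed over all probe sets. The injury means were 7.30 to 7.40 on ICD and 7.35 to 7.42 on wild type arrays, and overlapped. Havcr1, which encodes the tubular injury marker KIM-1, differed by 0.031 (interval -0.16 to 0.22). Vim, encoding vimentin, differed by 0.23 (interval 0.0094 to 0.45, limma adjusted p = 0.84). Thick limb and distal tubule markers had means of 11.44, 11.24 and 11.18 on ICD and 11.32, 11.44 and 11.43 on wild type arrays. For 7 of these 10 markers the ICD mean was lower, and 0 passed. Their part in the Clu values was not tested.

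Cst3 encodes cystatin C, a small inhibitor of cysteine proteases whose plasma level serves as a measure of filtration. It had the narrowest range over the 6 arrays of all ligand probe sets, 0.206. 1426195_a_at read 12.00, 11.98 and 12.02 in ICD and 12.03, 11.95 and 11.83 in wild type kidneys. Wild type 1 was the highest array and the one labelled wild type 3 the lowest, so that all ICD values lay inside the wild type range. The difference was 0.061 (interval -0.11 to 0.23, limma adjusted p = 0.979), and 0.0067 without the array labelled wild type 3.

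Lcn2 encodes neutrophil gelatinase-associated lipocalin, an iron-siderophore carrier that rises in the injured distal nephron. Its probe set 1427747_a_at lay below the median of all probe sets. It read 6.20, 5.99 and 6.58 in ICD and 5.78, 6.40 and 6.34 in wild type kidneys, and the groups overlapped widely. The difference was 0.082, and 0.16 with the array labelled wild type 3 left out. Its interval over all arrays, -0.36 to 0.52, was the widest among the ligands. The sign turned with the animal left out, from -0.12 without wild type 1 to 0.21 without ICD 2. Of 7 measured neutrophil markers 6 lay below the median of all probe sets, as did 6502 of all 18193 genes. The mean of the 7 was 5.83 to 5.92 on ICD and 5.85 to 5.90 on wild type arrays. Of the 7, 4 were lower and 3 higher in ICD kidneys, with a median difference of -0.050 and 0 past the threshold. Ltf, encoding the iron-binding granule protein lactoferrin, was among those that were higher and read 5.89, 6.02 and 5.93 in ICD and 5.70, 5.77 and 5.78 in wild type kidneys (difference 0.20, interval 0.044 to 0.36, limma adjusted p = 0.751).

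**Figure D2:**
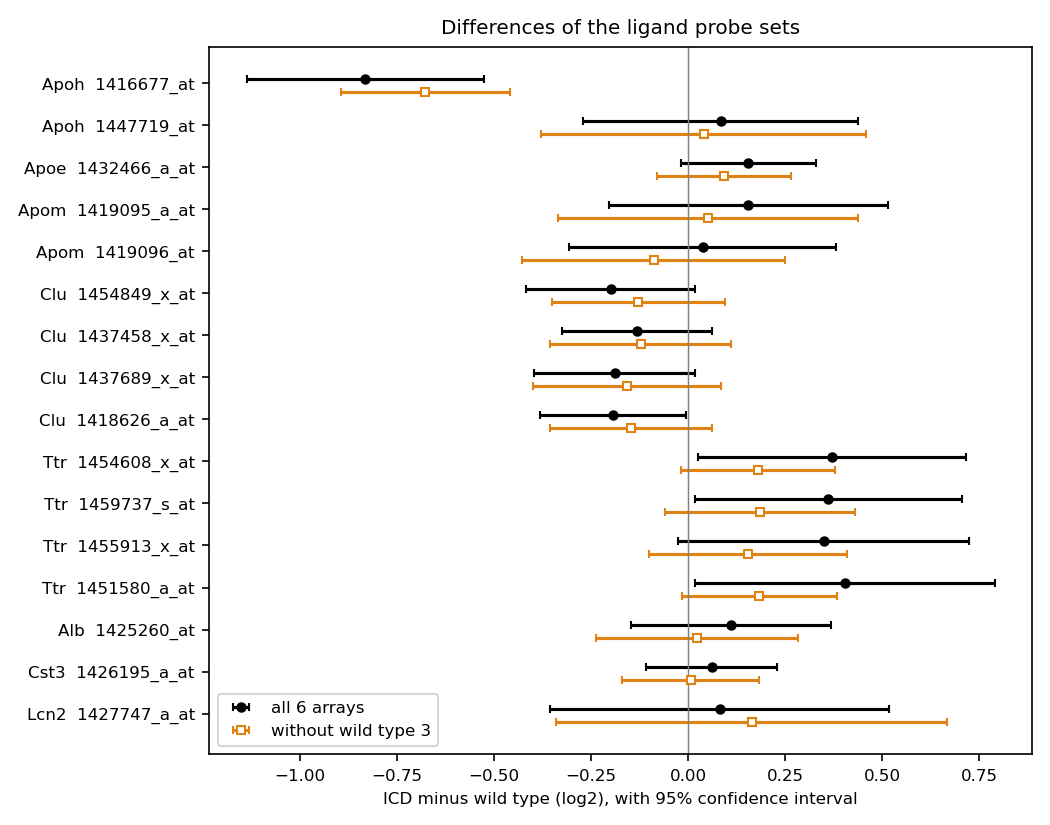
Points are log2 differences of the 16 ligand probe sets (ICD mean minus wild type mean), with 95% confidence intervals from limma, for all 6 arrays (black) and for the 5 that remain when the one labelled wild type 3 is left out (open orange). The interval of Apoh 1416677_at stays below 0 in both, while those of 3 Ttr probe sets lie above 0 with all arrays and reach 0 without that array.

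Over the ligands together, 0 of 16 probe sets passed the limma threshold of an adjusted p under 0.05, as did 0 of all 45037 (0%). At an unadjusted limma p under 0.05 there were 5 of 16, against 5.86% of all probe sets. With the array labelled wild type 3 left out there was 1 of 16, Apoh 1416677_at, against 5.53% of all. The count was also 1 without ICD 1 and without ICD 3, 3 without ICD 2, 9 without wild type 1 and 5 without wild type 2. The share of all probe sets was not counted in these settings, so nothing is read from these counts about the ligands. With all arrays, 2 were lower in ICD kidneys, Apoh 1416677_at and Clu 1418626_a_at, against 2.26% of all. Higher were 3 of the 4 Ttr probe sets, against 3.61%. The groups did not overlap at 5 of 16 probe sets, against 10.5% of all. Of these 4 had the ICD arrays above, against 5.44% of all, and 1 had them below, against 5.05%. Since 3 of those 4 are annotated to Ttr, they are not separate observations. By the brightest probe set of each gene, 6 of 8 ligands were higher and 2 lower in ICD kidneys, and 43.9% of all genes were higher. The median difference was 0.097 over the 8 ligands and -0.012 over all 18193 genes. Over the ligands it was 0.037 with the array labelled wild type 3 left out, 0.060 without ICD 2 and 0.16 without wild type 2.

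The precision was limited by the number of arrays. The distance from the estimate to either end of the 95% interval ran from 0.169 for Cst3 to 0.437 for Lcn2, and its median over all probe sets was 0.193. With 3 animals a group the smallest 2-sided p of an exact permutation test is 0.1, so none was made.

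The array labelled wild type 3 was the highest or the lowest of the 6 at 12 of the 16 ligand probe sets. Among all probe sets it was extreme at 37.0%, less often than ICD 2, at 38.4%, which was extreme at 3 of the 16. It was lowest for Apoe, Alb, Cst3, both Apom and all 4 Ttr probe sets, and highest for Apoh 1416677_at and 2 of the 4 Clu probe sets. ICD 3 was extreme at 10 of 16, against 28.3% of all probe sets, and ICD 1 at 1 of 16, against 30.4%. ICD 3 was highest for Lcn2 and all 4 Ttr probe sets, and lowest for Apoh 1416677_at and all 4 Clu probe sets. Probe sets of the same gene are not separate observations in these counts. Across the 6 arrays the brightest probe sets of Apoe and Ttr had a Pearson correlation of 0.933, those of Clu and Cst3 -0.897 and those of Apoh and Apoe -0.895, the strongest among the pairs of ligands. Apoh and Ttr had -0.867, and Apoh and Lcn2 0.0013. These correlations describe 6 arrays that share the same RNA for every gene and include the array labelled wild type 3.

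The low reading of Ttr on that array lay beside low readings of proximal tubule markers. Slc22a8, an organic anion transporter, read 11.26 on it and 12.23 to 12.60 on the others, and Miox, an inositol-degrading enzyme, read 13.88 against 14.15 to 14.32. Other markers of the segment did not follow: Slc22a6 read 13.06 on it and 13.06 to 13.17 elsewhere, and Slc27a2 read 14.67 against 14.56 to 14.60. Of the 11 markers 8 were higher in ICD kidneys, against 43.9% of all genes. Their median difference was 0.088, and -0.00059 without that array. Their part in the Ttr, Apom and Cst3 values was not tested.

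**Figure D3:**
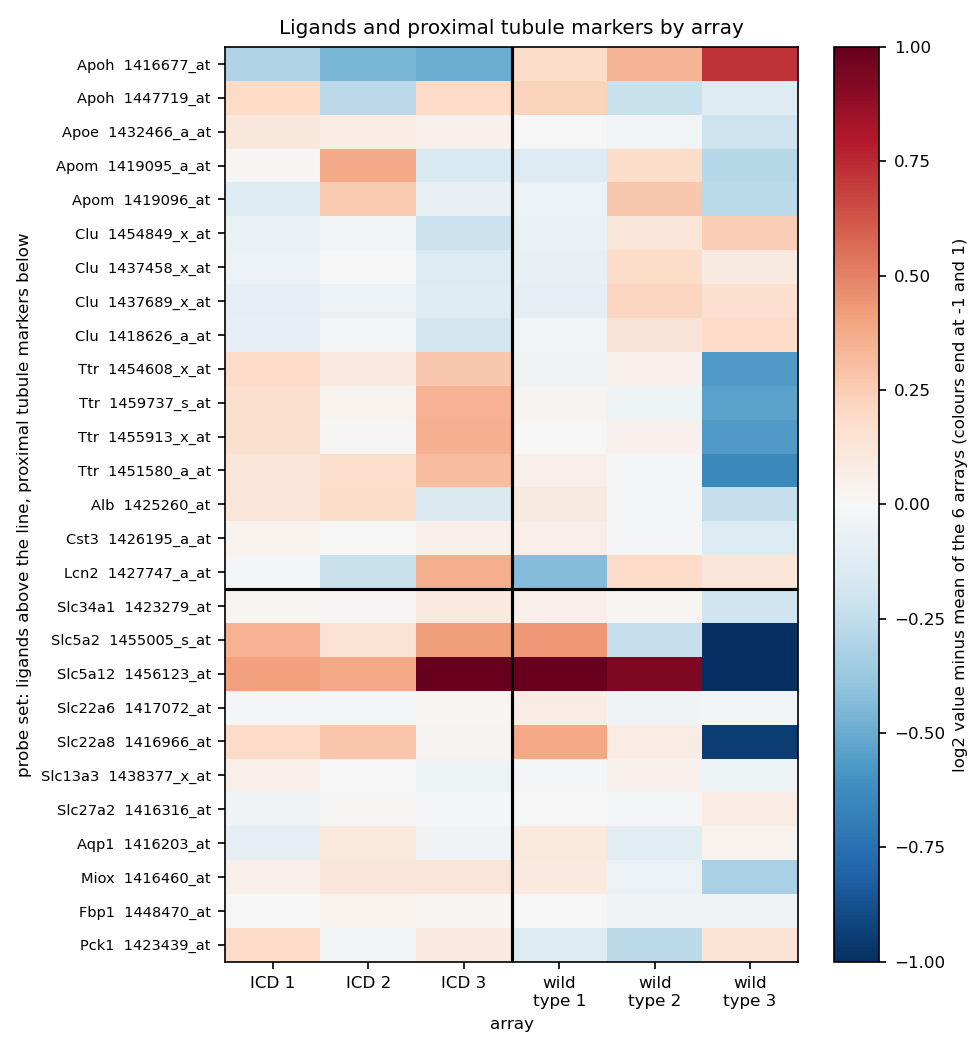
Colours give the log2 value of each probe set minus its mean over the 6 arrays, for the 16 ligand probe sets (above the line) and 11 proximal tubule markers (below), with ICD arrays left and wild type arrays right. Colours end at -1 and 1. The column of wild type 3 is blue for Ttr, Slc5a2, Slc5a12 and Slc22a8 and red for Apoh 1416677_at.

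Other ligands of megalin or cubilin were followed in the same way, by 27 of 29 listed genes with a probe set. Of these 8 lay below the median of all probe sets, Cblif and Ambp among them, as did 6502 of all 18193 genes. In all, 12 of the 27 were higher and 15 lower in ICD kidneys, near the 43.9% of all genes that were higher. Of the 27, 0 passed over all probe sets in limma. None had an unadjusted limma p under 0.05, against 3.94% of all genes. Their median difference was -0.027, against -0.012 over all genes, and it was 0.0094 without the array labelled wild type 3. Differences ran from -0.20 for Cblif, the gastric intrinsic factor, to 0.27 for B2m, the light chain of class I histocompatibility molecules. B2m read 12.71, 12.67 and 12.85 in ICD and 12.42, 12.26 and 12.75 in wild type kidneys, with the array labelled wild type 3 inside the ICD range. Rbp4, the retinol carrier that travels with transthyretin, differed by 0.11 (interval -0.20 to 0.42), and Ambp, the precursor of alpha-1-microglobulin, by 0.17 (interval -0.061 to 0.41). Tcn2, which carries vitamin B12 into the tubule cell by way of megalin, and Selenop, the selenium carrier, differed by 0.041 (interval -0.11 to 0.19) and -0.033 (interval -0.17 to 0.11). The groups did not overlap for 1 of the 27, Mb, which encodes myoglobin (difference -0.074), against 9.1% of all genes.

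**Figure D4:**
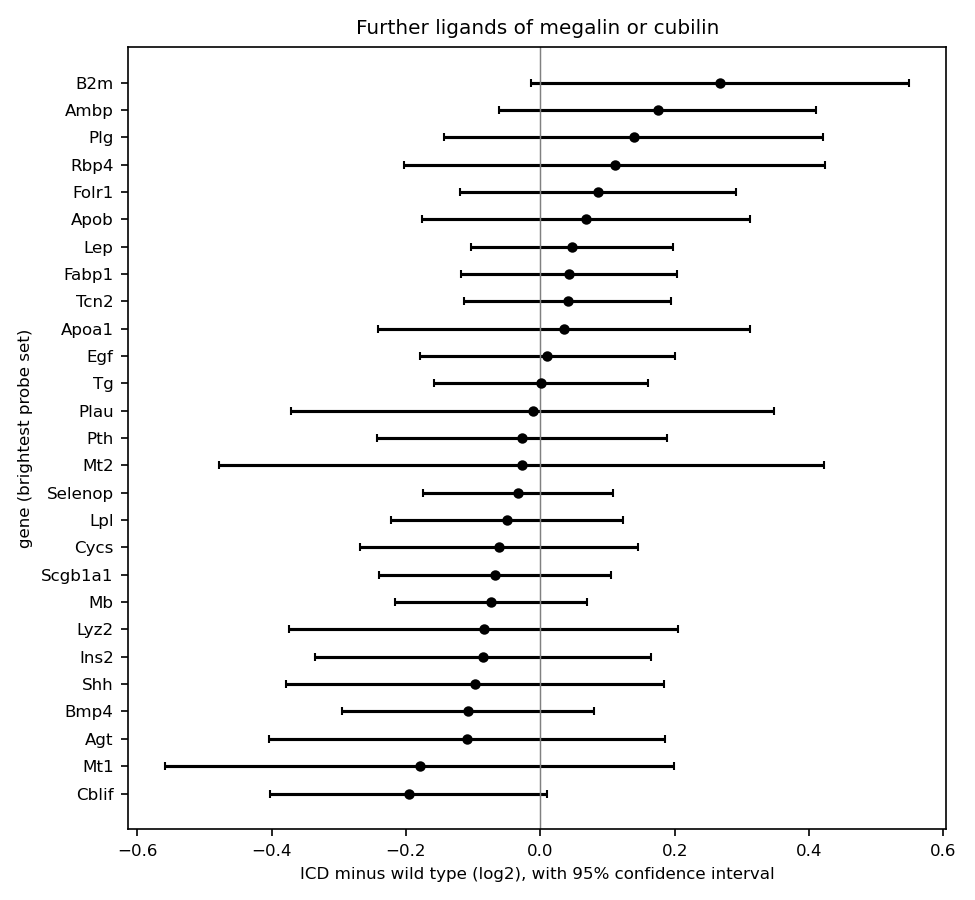
Points are log2 differences (ICD mean minus wild type mean), with 95% confidence intervals from limma, for the brightest probe set of each of 27 further ligands of megalin or cubilin. All 27 intervals include 0, and the differences run from -0.20 to 0.27.

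The receptor side was read from 7 measured genes, Lrp2, Cubn, Amn, Dab2, Lrpap1, Clcn5 and Ocrl. Of these 6 were higher and 1 lower in ICD kidneys, by -0.024 to 0.092 at the brightest probe set of each, and 0 passed. Among all genes 43.9% were higher. Lrp2 counted as higher by 0.0079 at 1452320_at, but its other bright probe set, 1427133_s_at, differed by -0.41 (interval -0.89 to 0.068). There the array labelled wild type 3 read 12.13, and wild type 1 and 2 read 13.01 and 12.97. The dimmest Lrp2 probe set, 1445901_at, differed by 0.12 (interval -0.25 to 0.49). Cubn, the co-receptor, differed by 0.070 and Amn, which anchors cubilin in the membrane, by 0.042 (interval -0.11 to 0.19).

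Further cell types were checked because ligands such as Apoe and Clu are expressed widely. Podocyte markers had means of 8.30 to 8.42 on ICD and 7.83 to 8.07 on wild type arrays, and at all 6 measured markers every ICD array lay above every wild type array, as at 3.66% of all genes, with 0 past the threshold over all probe sets. All 6 had an unadjusted limma p under 0.05, as did 3.94% of all genes in either direction. Their median difference was 0.46, and 0.35 with the array labelled wild type 3 left out. The smallest p-values among them were those of Cdkn1c (0.55, interval 0.24 to 0.86), Wt1 (0.52, interval 0.23 to 0.81), Synpo (0.35, interval 0.13 to 0.56) and Podxl (0.40, interval 0.15 to 0.66). Fat markers had means of 9.81, 9.82 and 9.40 on ICD and 9.03, 9.58 and 9.64 on wild type arrays, with 5 of 6 higher and 0 past the threshold. Red blood cell markers were lower for 2 of 3 and adrenal cortex markers for 3 of 5, also with 0 past the threshold. Alas2, the first enzyme of haem synthesis in red cell precursors, differed by -0.39 (interval -0.72 to -0.057). The part of these cell types in the ligand values was not tested.

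For each ligand the probe sets of other genes with the most similar profile over the 6 arrays were listed, among 19651 to 19655 candidate probe sets with 1 gene symbol and at least median brightness. Each correlation is therefore among the 3 highest of that many. For Apoh these were Hk1, a hexokinase (Pearson r = 0.993), Laptm4b, a lysosomal membrane protein (0.992), and the noncoding RNA Tug1 (0.983). Laptm4b read 11.17, 11.10 and 11.14 in ICD and 11.30, 11.34 and 11.48 in wild type kidneys, a separation in the same direction as Apoh but smaller (difference -0.24). For Ttr they were Sqle, an enzyme of cholesterol synthesis (0.996), Fam217b (0.995) and Park7 (0.989). Apoe was most like probe sets of Sdha (0.993), the class I gene H2-K1 (0.993) and Sestd1 (0.992). For Cst3 the list held Eng (0.995), Nbeal1 (0.994) and Slc5a2 (0.992), the last being the glucose transporter that was low on the array labelled wild type 3. For Clu they were Tigar (0.996), Fam199x (0.994) and Snrpa1 (0.991), and for Apom Swap70 (0.993), Wbp4 (0.993) and Arfgef2 (0.987). Alb was most like Atf6 (0.994), Vps13a (0.986) and Crkl (0.986), and Lcn2 most like Hadhb (0.995), Ggct (0.994) and Abi2 (0.993).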

How the data were processed

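The authors deposited log2 values, made with RMA per the submitters' processing notes. RMA corrects background, gives all arrays 1 distribution and summarises probes by median polish, so it compresses differences of dim probe sets. RMA's version and the chip definition are not given in the sources used here. Of 45101 rows, 64 controls were left out. The 6 arrays correlated at 0.995 to 0.997.

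Genes come from the platform annotation, checked by Entrez identifier against RefSeq (GRCm38.p6), with 0 symbols updated. The genotypes were set against each other with limma 3.58.1 (R 4.3.3; lmFit and eBayes, genotype the sole term, 2-sided), with Benjamini-Hochberg adjustment over 45037 probe sets and a threshold of 0.05; the script was tested on simulated data. Gene lists use the brightest probe set of each gene and carry no test. Named genes were all ligand probe sets, the 3 most similar probe sets of each ligand, its 2 neighbours on each side, Lrp2, and list members with an unadjusted p under 0.05, at most 4 a list; further list members were chosen for their known roles or after their values were seen. Ligands and lists were chosen with earlier results of these data known.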

Additional observations from a re-analysis of the deposited data

How the results depend on the processing

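Tried were a replicate block, probe sets of at least median brightness alone, a trended and robust prior, array weights, median centring, repeated quantile normalization, averaging a gene's probe sets, and leaving out each animal in turn. No ligand probe set passed in any of them. Apoh was lower in ICD kidneys in all 13 alternatives, 1 of which used the mean of both its probe sets (-0.37) and the rest 1416677_at. With an animal left out, 1416677_at ran from -0.95 to -0.68. The 4 Clu probe sets were lower and the 4 Ttr probe sets higher in each of their alternatives. Over all probe sets, 0 passed in the main fit, 1 with the trended and robust prior, and 0 to 1 with an animal left out (1 each without ICD 1, ICD 2 and the array labelled wild type 3). Apom 1419096_at turned to -0.011 with array weights. With an animal left out its difference ran from -0.088 to 0.18, that of Lcn2 from -0.12 to 0.21, and that of Apoh 1447719_at from -0.0061 to 0.24. The median of the further ligands ran from -0.047 to 0.0094 with an animal left out.

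With the replicate number as a block 0 probe sets passed, and the Apoh 1416677_at difference of -0.83 had an interval of -1.17 to -0.50. Deviations of same-numbered animals correlated at -0.0057, 0.0077 and -0.047, and 0 of 6 arrays correlated best with their own number, so the numbers were not taken as pairs. Lcn2 and Apoh 1447719_at lay below the median of all probe sets, and RMA in general compresses differences of dim probe sets. Whether it did so for these probe sets was not tested.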

Other observations

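Genes beside the ligands on the chromosome were read as well, 2 on each side of each of the 8 measured ligands, and 0 of these 32 passed over all probe sets in limma (2 had an unadjusted p under 0.05, against 3.94% of all genes). The groups did not overlap for 5 of the 32, against 9.1% of all genes. In ICD kidneys 16 were higher and 16 lower, and 43.9% of all genes were higher. Beside Apoh, Prkca, which encodes a protein kinase C, differed by 0.081 (95% interval -0.064 to 0.23) and Cep112 by -0.11 (interval -0.32 to 0.089). Cacng5 and Axin2, further out, differed by -0.16 (interval -0.33 to 0.019) and -0.17 (interval -0.43 to 0.085). At Cacng5, which lay below the median of all probe sets, every ICD array lay below every wild type array, as at Apoh 1416677_at. At Prkca every ICD array lay above, and at Cep112 and Axin2 the groups overlapped. All 4 differences were smaller in size than that of Apoh 1416677_at. Beside Ttr, B4galt6, a glycolipid galactosyltransferase, read 8.66, 8.57 and 8.61 in ICD and 8.72, 9.08 and 9.01 in wild type kidneys. Its groups did not overlap, and its difference of -0.32 (interval -0.55 to -0.10, limma adjusted p = 0.72) was opposite in sign to that of Ttr. Near Clu, Ccdc25 read 6.28, 6.20 and 6.38 in ICD and 6.09, 6.01 and 5.63 in wild type kidneys; it differed by 0.38 (interval 0.10 to 0.65, limma adjusted p = 0.725), again opposite in sign to the ligand's difference. The other neighbours of Clu differed by 0.016 (Scara3), -0.030 (Gulo) and 0.075 (Adam2), and those of Ttr by -0.058 (Dsg1b), 0.033 (Dsg2) and 0.017 (Trappc8). All 4 neighbours of Clu, and Dsg1b, lay below the median of all probe sets, so a small difference there says little. Beside Apoe, Tomm40 differed by -0.0029 and Nectin2 by 0.023. Beside Apom the differences were -0.0012 (Abhd16a), -0.13 (Gpank1), -0.039 (Bag6) and -0.080 (Prrc2a). On the far side of Alb from Afp, Cox18 differed by 0.076 and Ankrd17 by 0.092. Around Cst3 the differences were 0.064 (Cst9), 0.0060 (Cstdc2), -0.098 (Cst10) and 0.035 (Syndig1), and around Lcn2 0.086 (Ciz1), -0.043 (1110008P14Rik), -0.052 (Ptges2) and 0.15 (Slc25a25). Cst9, Cstdc2, Cst10 and Afp also lay below the median of all probe sets.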
